A study of Homo sapiens with 4 samples.

Results

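The chromatin reader DPF2 and the histone mark H3K14cr, crotonylation of lysine 14 on histone H3, were mapped by ChIP-seq, the sequencing of immunoprecipitated chromatin, in the human leukaemia line K562, and their signal is described at 7 immediate early genes: FOS, JUN, JUNB, JUND, EGR1, IER2 and DUSP1. The 7 genes were taken by name, and their transcription start sites (TSS) on hg19 were chr14:75745481 for FOS, chr1:59249785 for JUN, chr19:12902310 for JUNB, chr19:18392466 for JUND, chr5:137801181 for EGR1, chr19:13261282 for IER2 and chr5:172198203 for DUSP1. They stand among 2598309 tiles of 1 kb that held reads. All 4 libraries came from unmodified (WT) K562 cells grown in serum-containing medium: DPF2 replicates 1 and 2, made with an Abcam antibody, and H3K14cr replicates 1 and 2, made with a PTM antibody. The labels name no stimulus, and no control library was analysed here. They do not say whether libraries of the same antibody came from separate cultures.

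Immediate early genes are transcribed within minutes of a growth factor or stress signal, before new protein is made. Many of their promoters carry sites for SRF, which acts with phosphorylated partners, and for CREB, which is itself switched on by phosphorylation. FOS and the JUN proteins pair to form AP-1, which binds DNA in many enhancers. DPF2 belongs to the BAF (SWI/SNF) remodelling complexes, which move nucleosomes, and recognises H3 tails acylated at lysine 14 through its PHD fingers.

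The bases just upstream of the start site are shown for 4 of the genes to display the response elements this class is known for. They come from RefSeq (GRCh38.p14), cover the 250 bases before the RefSeq start and are written 5′ to 3′ on the coding strand. Capitals mark the SRF-binding CArG box, the cyclic AMP response element TGACGTCA, and its core TGACG, searched on both strands; each TGACGTCA holds overlapping cores, one on each strand.
EGR1, chr5:138465229-138465478, plus strand: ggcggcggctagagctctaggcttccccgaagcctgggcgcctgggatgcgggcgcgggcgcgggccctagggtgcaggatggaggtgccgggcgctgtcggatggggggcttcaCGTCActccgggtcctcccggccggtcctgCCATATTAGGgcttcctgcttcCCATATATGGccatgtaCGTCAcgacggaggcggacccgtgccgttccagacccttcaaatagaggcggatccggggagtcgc
FOS, chr14:75278578-75278827, plus strand: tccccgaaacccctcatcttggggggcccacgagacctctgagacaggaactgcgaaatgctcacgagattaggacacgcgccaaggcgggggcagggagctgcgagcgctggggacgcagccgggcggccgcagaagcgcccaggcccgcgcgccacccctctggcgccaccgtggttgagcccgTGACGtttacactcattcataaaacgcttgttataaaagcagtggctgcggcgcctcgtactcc
JUND, chr19:18281623-18281872, minus strand: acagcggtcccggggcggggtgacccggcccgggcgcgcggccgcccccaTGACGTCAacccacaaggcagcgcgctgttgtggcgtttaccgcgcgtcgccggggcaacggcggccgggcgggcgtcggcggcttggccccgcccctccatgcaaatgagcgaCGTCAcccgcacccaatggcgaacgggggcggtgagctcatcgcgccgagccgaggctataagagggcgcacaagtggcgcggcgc
DUSP1, chr5:172771196-172771445, minus strand: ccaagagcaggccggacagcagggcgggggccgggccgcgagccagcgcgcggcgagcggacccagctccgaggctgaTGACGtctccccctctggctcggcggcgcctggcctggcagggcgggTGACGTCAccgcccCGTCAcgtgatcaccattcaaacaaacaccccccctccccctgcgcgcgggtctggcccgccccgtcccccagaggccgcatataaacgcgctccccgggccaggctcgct

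All 7 genes had an entry, and all 7 held the core TGACG in these 250 bases, against 21.2% of 35116 RefSeq promoters. The full TGACGTCA was in JUND and DUSP1, against 1.65% of all promoters. Within these 250 bases EGR1 alone of the 7 held CArG boxes, with 2 matches, against 1.16% of promoters with at least 1. Bases farther upstream were not searched, so a gene without a match here may hold one there. The AP-1 motif TGANTCA was in 0 of 7 and in 6.57% of promoters, GGGCGG in 5 of 7 and 42.6%, CCAAT in 3 of 7 and 32.0%, and TATAA in 4 of 7 and 18.9%. The count of CpG ran from 14 in JUN, at percentile 55.2 of all promoters, to 40 in JUND, at percentile 97.8, against a median of 11 over all promoters. TGACG itself contains a CpG. A match is a description of the letters and not a measured binding site. The reads below resolve windows of about 1 kb, so no signal can be placed on a single element, and the start sites of the builds were not matched base by base.

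Depth was 7787444 and 13317496 reads in the DPF2 libraries and 10880366 and 17369133 reads in the H3K14cr libraries. Values are therefore given as reads per library of 1000000 reads (CPM), with the reads behind them. Over the 91 windows around the 7 genes, replicates 1 and 2 differed by less than sampling noise, with a chi-square per degree of freedom of 0.871 in the DPF2 pair and 0.793 in the H3K14cr pair. Levels, folds and ratios were therefore taken from the pooled reads of each pair, as 1 sample per antibody. The enrichment calls and the fits across tiles used the 4 libraries singly. The p-values of the calls measure counting noise within 1 library against its background. The errors and p-values of the fits measure the spread between libraries, which may be technical, and not between cultures. Intervals are 95% exact intervals on pooled reads and cover counting error only, since without molecular identifiers 2 reads may come from the same molecule. As a check of the label, a stretch of chromosome 22 on the amplified BCR side of the K562 fusion gene stood at 5.08 to 5.57 times the mean tile level in the 4 libraries. A stretch of chromosome 9 around CDKN2A, which K562 has lost, stood at 0.00130 to 0.00445 times.

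The first question was how strongly each promoter carried DPF2 and H3K14cr. In the 1 kb window centred on the TSS the pooled level ran from 2.32 to 4.36 CPM for DPF2 and from 2.62 to 5.77 CPM for H3K14cr. These windows were among the highest in the genome: in each library they ranked above at least 98.9% of all covered tiles. Measured against the mean of the whole chromosome, they stood 4.06- to 9.84-fold higher for DPF2 and 5.31- to 16.3-fold higher for H3K14cr.

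**Figure D1:**
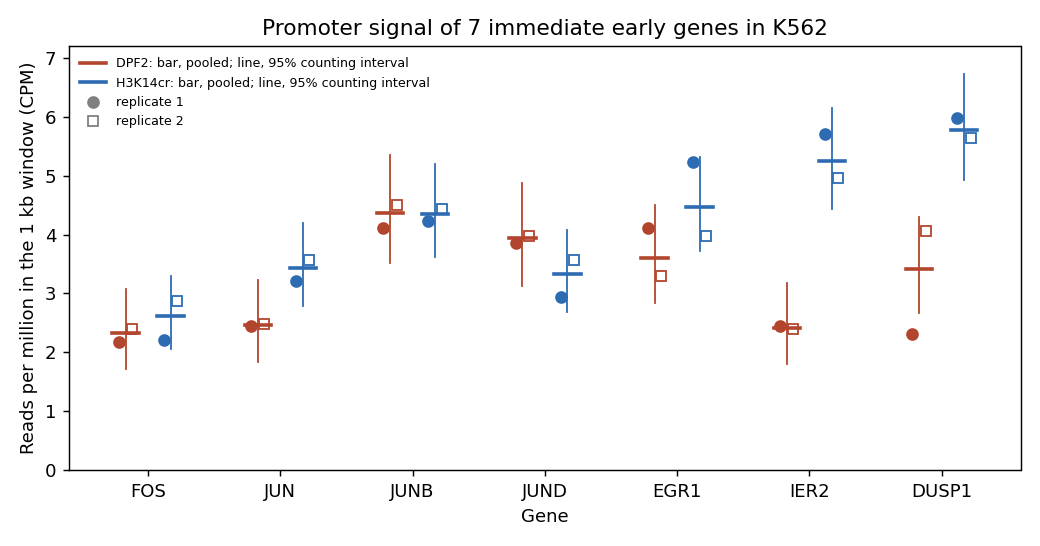
CPM in the 1 kb window centred on the start site of each gene, for DPF2 (red, left of each pair) and H3K14cr (blue, right). Circles and squares are replicates 1 and 2, the bar is the pooled level and the vertical line its 95% counting interval. Pooled DPF2 lies well below H3K14cr at IER2 and DUSP1. At JUND pooled DPF2 lies above H3K14cr, with overlapping counting intervals.

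Among the AP-1 subunits, FOS, the partner that cannot pair with itself, had the lowest promoter levels of the 7. DPF2 stood at 2.18 and 2.40 CPM (17 and 32 reads) at FOS, and H3K14cr at 2.21 and 2.88 CPM (24 and 50 reads). The libraries of the antibodies overlapped there. At JUN, which can pair with itself as well as with FOS, DPF2 stood at 2.44 and 2.48 CPM (19 and 33 reads) and H3K14cr at 3.22 and 3.57 CPM (35 and 62 reads), so both DPF2 libraries were below both H3K14cr libraries.

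JUNB, which can restrain JUN at some target genes, had the highest DPF2 level of the 7, with 4.11 and 4.51 CPM (32 and 60 reads), and H3K14cr levels of 4.23 and 4.43 CPM (46 and 77 reads) within that range. JUND is the JUN family member that most cell types express without stimulation. At JUND DPF2 stood at 3.85 and 3.98 CPM (30 and 53 reads) and H3K14cr at 2.94 and 3.57 CPM (32 and 62 reads). Scaled by library totals, JUND was the only gene of the 7 with both DPF2 libraries above both H3K14cr libraries, but the pooled counting intervals overlapped. The share of all tiles with such a separation of libraries, in either direction, was not computed. Whether the separations of any gene hold under another scaling was not tested.

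EGR1 encodes a zinc finger transcription factor. DPF2 stood at 4.11 and 3.30 CPM (32 and 44 reads) there, and H3K14cr at 5.24 and 3.97 CPM (57 and 69 reads), with overlapping libraries. IER2, a nuclear protein induced early by growth factors, had 2.44 and 2.40 CPM of DPF2 (19 and 32 reads), against 5.70 and 4.95 CPM of H3K14cr (62 and 86 reads), so both DPF2 libraries lay far below both H3K14cr libraries. DUSP1 encodes the phosphatase that switches off MAP kinases and so limits the response. Its DPF2 levels were 2.31 and 4.05 CPM (18 and 54 reads), the widest spread between libraries of the 7 genes at 1.75-fold, and its H3K14cr levels of 5.97 and 5.64 CPM (65 and 98 reads) were the highest. Both DPF2 libraries lay below both H3K14cr libraries there too.

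Between genes, the order of pooled DPF2 levels was JUNB, JUND, EGR1, DUSP1, JUN, IER2 and FOS. For H3K14cr it was DUSP1, IER2, EGR1, JUNB, JUN, JUND and FOS. No pair of neighbours in either order differed beyond its counting interval, and only neighbours were compared in this way. The intervals of the first and last genes did not overlap. For DPF2 these were JUNB at 4.36 CPM (3.51 to 5.35) and FOS at 2.32 CPM (1.72 to 3.07). For H3K14cr they were DUSP1 at 5.77 CPM (4.92 to 6.73) and FOS at 2.62 CPM (2.06 to 3.29). The widest gap between neighbours for DPF2 was DUSP1 over JUN, at 1.38-fold (0.956 to 2.02), and for H3K14cr JUND over FOS, at 1.27-fold (0.927 to 1.75). Levels at different loci also carry the copy number of each locus, and how far it sets this order was not tested.

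The second question was whether the promoters stood out from their own surroundings. Over the mean of the 20 kb around the TSS the promoter window was raised 1.67- to 2.70-fold for DPF2 (median 2.58) and 1.73- to 3.65-fold for H3K14cr (median 2.79). A window was called enriched when, in both libraries, it reached a fold of at least 3 over that mean, or over the chromosome mean where this was larger, together with an adjusted p no higher than 0.001 (Poisson test, one-sided, adjusted by Benjamini-Hochberg). By this rule 0 of 7 promoters were enriched for DPF2, where 0.156% of all tiles were called. A single promoter, that of DUSP1, was enriched for H3K14cr, where 0.334% of all tiles were called. Its DPF2 folds were 1.64 and 3.15, and its H3K14cr folds 3.56 and 3.72. With 0 DPF2 calls, no promoter could have both calls. Of all 2598309 tiles, 2953 were called for both antibodies. These are 73.0% of the DPF2 tiles and 34.0% of the H3K14cr tiles. In 500 bp windows the single H3K14cr call was JUN and not DUSP1.

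In DPF2 replicate 2, 6 of 7 reached the adjusted p and 1 the fold; in DPF2 replicate 1, 1 reached the adjusted p and 0 the fold. In H3K14cr replicate 2 all 7 reached the adjusted p and 3 the fold, and in H3K14cr replicate 1 the counts were 5 and 2. The share of all tiles reaching the adjusted p or the fold alone in each library was not computed. Without DPF2 replicate 1 the DPF2 count was 1 (DUSP1), where 0.376% of all tiles were called. The H3K14cr count was 3 without replicate 1 (FOS, JUN, DUSP1), where 0.546% of tiles were called. It was 2 without replicate 2 (EGR1, DUSP1), where 0.455% were. FOS and JUN were close to the line for H3K14cr, with 2.91 and 3.14 at FOS and 2.94 and 3.67 at JUN.

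The surroundings themselves were raised. The 20 kb around the TSS stood 2.26- to 3.64-fold above the chromosome mean for DPF2, higher than 92.1 to 98.8% of all positions, and 2.37- to 4.53-fold for H3K14cr, higher than 91.0 to 99.1%. Over the chromosome mean, EGR1 and DUSP1 stood highest for both antibodies, at 3.64-fold each for DPF2 and 4.53- and 4.47-fold for H3K14cr. That mean differs between chromosomes. In reads per kb the 20 kb around JUNB was highest in all 4 libraries (15.95 and 26.45 for DPF2, 25.8 and 43.9 for H3K14cr). The 20 kb mean includes the promoter window itself. The surrounding 1 Mb stood 1.26- to 2.04-fold above the chromosome mean for DPF2 and 1.27- to 2.16-fold for H3K14cr, highest at FOS for both antibodies. How far copy number sets the level of the 1 Mb was not tested. Over the 1 Mb mean, the promoters were raised 2.69-fold (IER2) to 5.63-fold (EGR1) for DPF2 and 3.04-fold (JUND) to 7.90-fold (DUSP1) for H3K14cr.

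**Figure D2:**
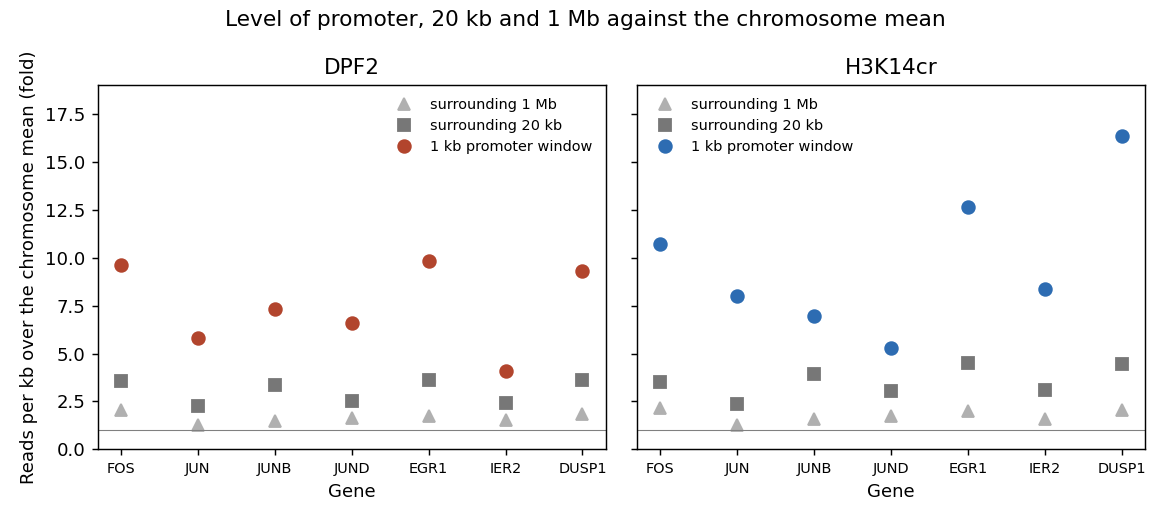
Reads per kb over the chromosome mean (fold) for the 1 kb promoter window (circles), the surrounding 20 kb (squares) and the surrounding 1 Mb (triangles) of each gene, with DPF2 left and H3K14cr right. At every gene the promoter lies above its 20 kb and the 20 kb above its 1 Mb, which lies above the line at 1.

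The call therefore turned on the background. With the chromosome mean alone, 7 of 7 promoters passed for DPF2, where 1.46% of tiles did, and 7 of 7 for H3K14cr, where 2.78% did. With the 20 kb taken without its central 6 kb, JUN, JUND and EGR1 passed for DPF2, where 0.339% of tiles did. FOS, JUN, EGR1, IER2 and DUSP1 then passed for H3K14cr, where 0.641% of tiles did.

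Across 12 kb the genes differed in shape. At FOS the central window was the highest full window (DPF2 2.68-fold, H3K14cr 3.06-fold), against 1.97- and 2.07-fold in the window 1 kb upstream and 1.32- and 1.16-fold in the one 1 kb downstream. A further rise lay at the downstream edge, where DPF2 stood at 2.19-fold and H3K14cr at 1.82-fold. JUN, a gene without introns, formed a plateau from 1 kb upstream to 2 kb downstream, with DPF2 between 2.28- and 3.08-fold and H3K14cr between 2.64- and 3.37-fold. JUNB was low and broad: from 2 kb upstream to 2 kb downstream DPF2 lay between 1.39- and 2.17-fold and H3K14cr between 1.19- and 1.92-fold. HOOK2, MIR5684 and PRDX2 lie within 6 kb of its start in the RefSeq table.

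At EGR1 the signal leaned upstream. In the flank from 0.5 to 2.5 kb, downstream reads were 0.453 times the upstream reads for DPF2 (0.330 to 0.615) and 0.560 times for H3K14cr (0.443 to 0.705). At IER2 it leaned the other way, with downstream reads 2.93 times the upstream reads for DPF2 (2.08 to 4.21) and 2.61 times for H3K14cr (2.08 to 3.30). IER2 signal stayed up to 5 kb downstream, where DPF2 reached its highest full window of that locus at 2.92-fold, against 1.67-fold at the promoter, while H3K14cr peaked 2 kb downstream at 2.93-fold. The neighbour STX10 begins just upstream of IER2 in the RefSeq table, on the other strand.

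JUN, JUNB and JUND also had more H3K14cr reads downstream than upstream, at 1.52 (1.18 to 1.95), 1.34 (1.10 to 1.62) and 1.42 times (1.16 to 1.76). For DPF2 the values were 1.35 (1.002 to 1.83), 1.11 (0.860 to 1.43) and 1.45 times (1.09 to 1.95). At FOS the downstream flank was 0.683 times the upstream one for DPF2 (0.448 to 1.03) and 0.628 times for H3K14cr (0.430 to 0.909). At DUSP1 it was 0.735 times for DPF2 (0.538 to 1.0005) and 1.10 times for H3K14cr (0.869 to 1.40).

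JUND differed between antibodies in the centre. DPF2 was highest in the promoter window, at 2.63-fold, with 2.03- and 1.59-fold in the windows 1 kb upstream and downstream. It rose again to 2.19-fold in the window 2 kb downstream. H3K14cr dipped in the promoter window to 1.73-fold, between 2.46-fold 1 kb upstream and 2.30-fold 1 kb downstream. The highest run of 300 bp held 13 and 24 reads in the DPF2 libraries and 22 and 34 reads in the H3K14cr libraries at JUND, and its position differed between DPF2 replicates by more than 2 kb, so no summit was placed.

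**Figure D3:**
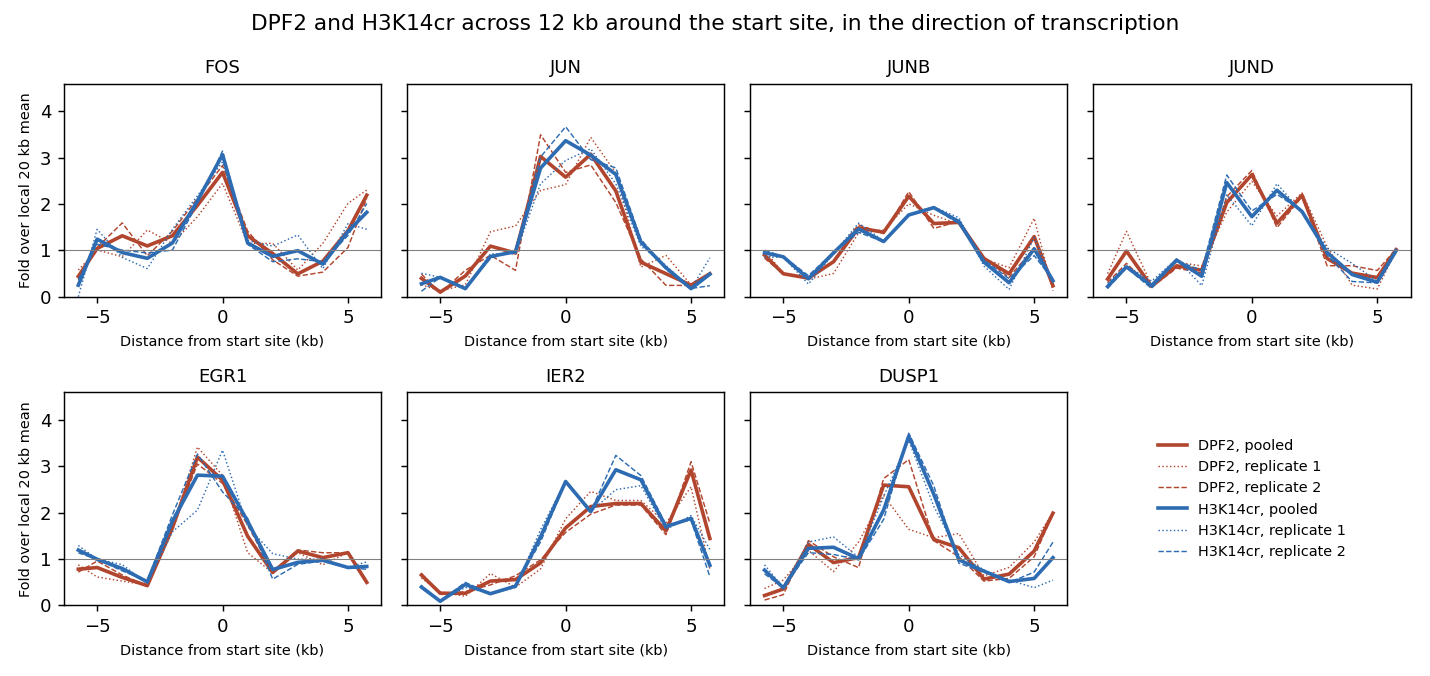
Fold over the local 20 kb mean (vertical axis) in windows up to 6 kb from the start site (horizontal axis, in the direction of transcription), for DPF2 (red) and H3K14cr (blue). Thick lines are pooled reads and thin lines single replicates; JUN forms a plateau, EGR1 leans upstream, IER2 extends downstream and H3K14cr dips at the JUND start site.

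The third question was how DPF2 compared with H3K14cr at promoter and flanks. The ratio of DPF2 over H3K14cr in CPM was lowest at IER2, at 0.461 (0.329 to 0.638), and next at DUSP1, at 0.591 (0.442 to 0.785). At the other genes the interval included 1: JUN had 0.718 (0.502 to 1.02), EGR1 0.807 (0.599 to 1.08), FOS 0.886 (0.605 to 1.29), JUNB 1.00 (0.756 to 1.32) and JUND 1.18 (0.869 to 1.60). The median of the 7 ratios was 0.807, against 0.803 over the 77970 tiles that stood above the chromosome mean for either antibody by the same test. Among those tiles the IER2 ratio lay at percentile 3.98, DUSP1 at 16.0 and JUND at 87.6.

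A limma fit on log2(CPM + 0.5), over every tile averaging 10 reads or more per library, put 0 of 7 promoters higher in DPF2 and 2 of 7 higher in H3K14cr at an adjusted p up to 0.05 (Benjamini-Hochberg over all tiles). The background was 0.202% of 255612 tiles higher in DPF2 and 1.19% higher in H3K14cr; among tiles enriched for either antibody it was 2.69% and 11.4%. The members are high windows, but only DUSP1 was called enriched, so neither set matches them. The enriched tiles were also chosen on the same reads that the fit compares. For tiles above the chromosome mean, a line all 7 members passed, no such share was computed. IER2 had a log2 difference of DPF2 minus H3K14cr of -0.99 (SE 0.20, limma adjusted p = 0.00110), with both DPF2 libraries below both H3K14cr libraries. DUSP1 had -0.82 (SE 0.19, limma adjusted p = 0.00919), likewise without overlap of the libraries. JUND, at 0.24 (SE 0.20, limma adjusted p = 0.682), did not pass, nor did JUN, at -0.39 (SE 0.22, limma adjusted p = 0.461). At an unadjusted p under 0.05 the counts were again 0 and 2, but the share of all tiles at that line was not computed. edgeR also called 0 and 2, where 578 and 3435 of the 255612 tiles were called.

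These calls depended on the scaling. With library totals the median log2 difference was -0.27 over the 7 genes and -0.34 over tiles enriched for either antibody. Median-of-ratios factors moved the median of those tiles to -0.02, and IER2 then stood at -0.65 (limma adjusted p = 0.0837) and DUSP1 at -0.47 (limma adjusted p = 0.228), so 0 of 7 passed. FOS, JUNB and EGR1 changed sign under these factors, to 0.20, 0.34 and 0.07. Over the 11 alternatives the limma adjusted p ran from 8.40e-05 to 0.568 for IER2 and from 5.98e-06 to 0.755 for DUSP1, and the difference stayed below 0 in all of them. Over all tiles the counts were 516 higher in DPF2 and 3032 higher in H3K14cr with library totals, and 2391 and 306 with median-of-ratios factors. Without H3K14cr replicate 1 neither gene passed, with log2 differences of -0.90 for IER2 (adjusted p = 0.568) and -0.78 for DUSP1 (adjusted p = 0.755). Without H3K14cr replicate 2 neither passed either, with -1.09 for IER2 (adjusted p = 0.227) and -0.86 for DUSP1 (adjusted p = 0.453). The differences were thus about as large as with all libraries, while the tiles called higher in H3K14cr numbered 37 and 39 in these fits. Without DPF2 replicate 1 the DUSP1 difference was smaller, at -0.47, and did not pass (adjusted p = 0.215).

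A ratio of ratios within a gene does not depend on the scaling. At IER2 the promoter had relatively less DPF2 than the far flanks, from 2.5 to 6 kb away: the ratio was 0.461 at the promoter and 0.843 (0.721 to 0.985) in the far flanks, a ratio of ratios of 0.547 (0.376 to 0.787). DUSP1 was alike, with 0.591 at the promoter and 0.921 (0.754 to 1.12) in the far flanks, a ratio of ratios of 0.642 (0.450 to 0.912). The DUSP1 value moved with the DPF2 library used: it was 0.820 (0.546 to 1.22) without DPF2 replicate 1 and 0.389 (0.210 to 0.690) without DPF2 replicate 2. It was 0.664 (0.429 to 1.03) without H3K14cr replicate 2. Without DPF2 replicate 2 the IER2 interval also included 1, at 0.638 (0.354 to 1.10). JUND went the other way against its near flanks, from 0.5 to 2.5 kb away, with 1.18 at the promoter and 0.702 (0.589 to 0.835) in the near flanks, a ratio of ratios of 1.68 (1.18 to 2.40), and 1.57 (0.935 to 2.58) without DPF2 replicate 2. With all libraries, the intervals against the near flanks of IER2 and DUSP1 included 1, as did that of JUND against the far flanks, and those of FOS, JUN, JUNB and EGR1 against both. In a 2 kb window the JUND ratio was 0.749, and in a 500 bp window 1.37. In a 500 bp window the DUSP1 ratio was 0.899. The far flanks were uneven: in windows centred 3, 4, 5 and 6 kb downstream the ratio was 0.598, 0.698, 1.15 and 1.23 at IER2. The same windows gave 0.649, 1.11, 1.70 and 1.63 at DUSP1. At that distance upstream, windows ran from 0.428 to 2.14 at IER2 and 0.236 to 0.900 at DUSP1, some on few reads. The share of all tiles with such a contrast between centre and flanks was not computed.

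**Figure D4:**
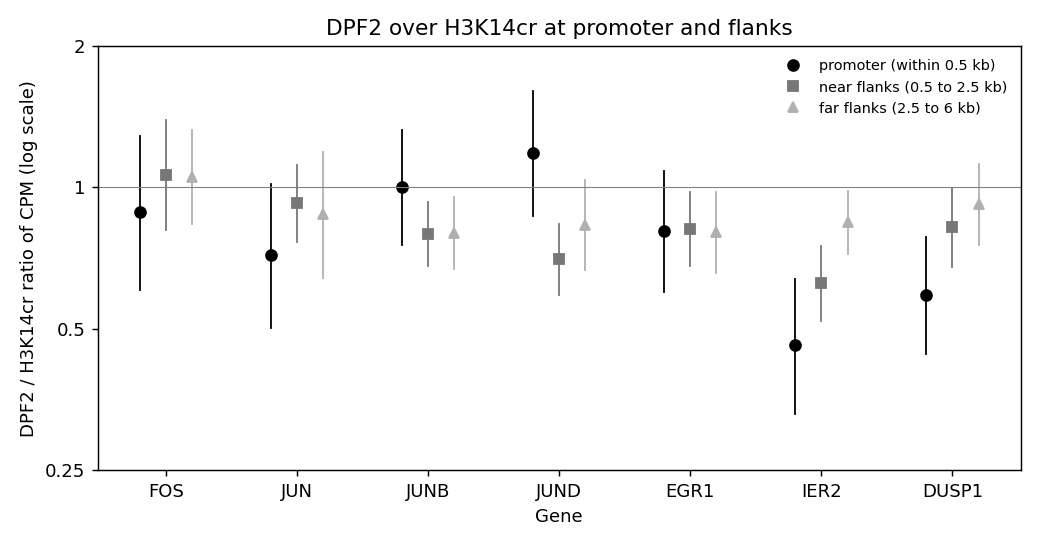
Ratio of DPF2 over H3K14cr in CPM (log scale) at the promoter (black circles), near flanks (dark squares) and far flanks (light triangles) of each gene, with 95% exact binomial intervals that cover counting error only. The promoter ratios of IER2 and DUSP1 lie below their far flanks, and that of JUND above its near flanks.

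Summed over the 7 genes, 475 DPF2 reads and 825 H3K14cr reads gave a promoter ratio of 0.771 (0.687 to 0.864), against 0.788 (0.736 to 0.845) in the near flanks and 0.861 (0.799 to 0.927) in the far flanks. The promoter interval overlapped both of the others, but these intervals cover counting error only and leave out the spread between genes. The sum hides the gene-to-gene range of 0.461 to 1.18 at promoters, which was wider than the 0.625 to 1.06 of the near flanks and the 0.800 to 1.05 of the far flanks. Promoter windows hold fewer reads than the flanks, and how far this widens their range was not tested.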

How the data were processed

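Bins of 100 bp with at least 1 read make up the deposited signal files, scaled by the authors to 10000000 reads per library, as the values show. Bowtie2, mm9 and hg19 are named in the submitters' processing notes; the sources used here give neither duplicate treatment nor filters. Positions on chromosome 21 reached 48118722, past its end in GRCh38, and were read as hg19. Dividing by the value of 1 read recovered whole counts for all but 1, 3, 4 and 0 listed values (tolerance 0.005). A bin was assigned by its midpoint. The 7 member windows joined all 1 kb tiles in each test. limma (trend) used library totals and a pseudocount of 0.5 CPM, which understates the change of low windows; edgeR's quasi-likelihood fit of the recovered counts, an alternative, called 578 tiles higher in DPF2 and 3435 higher in H3K14cr. Other alternatives changed the background, fold, window, scaling, filter and libraries. The tests were tried on simulated data first. Strands and neighbours came from RefSeq (GRCh38.p14). By rule all 7 members are named. Members, lists and tests were chosen with earlier results of these data known. Other immediate early genes were not analysed here. In 312 tiles of 150 reads or more the DPF2 pair differed beyond sampling noise (chi-square per degree of freedom 2.27), against 1.16 in 1169 such tiles for H3K14cr. Versions were R 4.3.3 with edgeR 4.0.16 and limma 3.58.1, and Python 3.11.15 with scipy 1.17.1, numpy 2.4.6, matplotlib 3.10.9 and pandas 2.3.3.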

Additional observations from a re-analysis of the deposited data

How the results depend on the processing

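Promoters enriched for DPF2 (0 in the report) numbered 7 with the chromosome mean alone, 3 with the 20 kb without its central 6 kb, and 0 to 1 with a replicate left out. Those enriched for H3K14cr (1 in the report) numbered 7, 5 and 2 to 3 in the same order. They numbered 0 with a fold of at least 5, 3 with libraries summed, and 3 with the 20 kb without the window itself. The last was chosen after seeing the data, as was the 1 Mb mean. The share of all tiles called moved as well. For DPF2 it was 1.46%, 0.339% and 0.227 to 0.376% in the same order. For H3K14cr it was 2.78%, 0.641% and 0.455 to 0.546%. With a fold of at least 5, libraries summed and the window left out, H3K14cr shares were 0.0427%, 0.574% and 0.429%. Promoters higher in H3K14cr (2) numbered 0 with median-of-ratios factors or quantile normalization and 0 to 2 with a library left out; those higher in DPF2 numbered 0 in all 11 alternatives. Tiles higher in DPF2 numbered 2391 with median-of-ratios factors, 273 with quantile normalization and 152 to 1319 with a library left out. Tiles higher in H3K14cr numbered 306, 176 and 37 to 8019, and 5735 with the filter raised to 20 reads. For these shifts the cause was not tested; a fit without a library rests on 3, and a lone library is assumed to vary like the others. Deviations of same-numbered libraries correlated at -0.00802, so the numbers were not taken to pair the libraries; the fit with a replicate block called 589 and 3633 tiles and the same counts of promoters, 0 and 2. Of 56 recomputed promoter ratios, 53 stayed within the counting interval of the reported ratio; the others were JUND in 2 kb windows, DUSP1 in 500 bp windows, and DUSP1 without DPF2 replicate 2, at 0.401. Of 56 ratios of ratios with a library left out, also added after seeing the data, 50 kept their interval on the same side of or across 1, 4 came to include 1 (IER2 and JUND once each, DUSP1 in 2 fits) and 2 came to leave 1 out. With 17 to 98 reads per promoter and library, differences smaller than the intervals given were not detectable at this depth.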
